A study of Mus musculus with 2 samples.

Results

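The nuclear-encoded respiratory chain and ATP synthase genes were examined in kidney RNA of Glis2 mutant and wild type mice. They were taken by gene name as the array gives it: every probe that is not a control and whose name starts with Nduf (complex I, NADH dehydrogenase), Uqcr (complex III, ubiquinol-cytochrome c reductase) or Atp5 (complex V, ATP synthase), the genes Sdha to Sdhd (complex II, succinate dehydrogenase), and names that start with Cox4, Cox5, Cox6, Cox7 or Cox8 (complex IV, cytochrome c oxidase) apart from Cox7a1 and Cox8b. The choice goes by name and not by a measured value. It gave 76 of the 20868 probes on the array, for 72 genes: 33 probes for complex I, 4 for complex II, 7 for complex III, 16 for complex IV and 16 for complex V. Not every name is a subunit: Ndufaf1 is an assembly factor of complex I, Atp5s is listed as Dmac2l in the current gene table, and Ndufa4 is now counted with complex IV.

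The respiratory chain sits in the inner mitochondrial membrane. Complexes I and II pass electrons from NADH and succinate to coenzyme Q, complex III passes them to cytochrome c and complex IV to oxygen. The protons pumped on the way drive complex V, which makes ATP. In the kidney the tubular epithelium, above all the proximal tubule and the thick ascending limb, is packed with mitochondria and uses this ATP for the sodium pump that powers reabsorption.

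Total RNA of kidneys labelled Glis2 KO and Glis2 WT was compared on 2 two-colour Agilent oligonucleotide arrays that formed a dye-swapped pair, with the mutant RNA in Cy3 on replicate 1 and in Cy5 on replicate 2. Glis2 encodes a Krüppel-like zinc finger protein whose loss in people causes one type of nephronophthisis, a kidney disease with fibrosis and cysts. The series description speaks of pools of 3 kidneys and of the ages postnatal day 25 and day 60, and RNA came from 2 independent experiments run in duplicate; the labels give neither the age behind an array nor whether these arrays are separate experiments. The sources used here name no strain, sex or allele. The p-values rest on differences between these 2 arrays, which may be technical, with the spread pooled mostly over all probes. The Glis2 probe itself gave log2 ratios of 0.32 and 0.16 (adjusted p = 0.347 in limma), so it was not lower in the RNA labelled mutant, and whether it lies in an altered part of the gene is not known. Every direction below therefore refers to the RNA labelled mutant. Median spot signal was between 4.06 and 5.18 times the local background in the 4 channels.

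Across the chain, the mutant and wild type channels of these 2 arrays differed little. All values are log2 ratios of mutant over wild type, taken from background-corrected, loess-normalised intensities that include an added offset of 50, which understates the change of dim probes. The median over the 76 probes was -0.042 (-0.036 on replicate 1 and -0.034 on replicate 2), beside 0.0061 over all 19575 probes tested (-0.0039 and 0.024 on the arrays). The lowest member was a Cox7b probe at -0.57 and the highest the Cox6b2 probe at 0.33. Of the 76 means, 63 lay within 0.2 of 0 (82.9%, against 71.9% of all probes tested), and 1 lay beyond 0.5 in either direction (1.32%, against 5.08%). Most members are bright, so probes with a mean log2 intensity of 12 or more are the closer background. Of the 58 such members 89.7% lay within 0.2 of 0 and 0 beyond 0.5, against 55.4% and 12.8% of all 734 such probes.

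limma called 0 members higher and 1 lower at an adjusted p under 0.05, where 3.41% of all probes were called higher and 1.06% lower. At an unadjusted p under 0.05 there were 1 member higher (1.32%) and 5 lower (6.58%), against 9.77% and 6.08% of all probes tested, and the counts at an unadjusted p further on have the same background. Among the 734 probes with a mean log2 intensity of 12 or more, limma called 42 higher and 47 lower, and 0 of the 58 members there. At an unadjusted p under 0.05, 15.4% of these 734 were higher and 17.8% lower. Of the 58 members 0 were higher and 2 lower (3.45%). All 76 probes were well above background in all 4 channels, so none was lost to the filter on dim spots, and the Cox6a1 probe was saturated in all 4. The design limits what could be seen. The median moderated SE of a member was 0.109 (n = 2), which gives an unadjusted 95% interval of 0.25 to either side. A call after adjustment needed a larger mean in this limma fit: Atp5s at -0.43 (adjusted p = 0.0863) and Cox7c at -0.39 (0.118) were not called. The unadjusted 95% interval of 70 members lay inside a 1.5-fold change in both directions. That of all 76 lay inside a 2-fold change, the saturated Cox6a1 probe included in both counts. The same holds at 1.5-fold for 86.0% of all probes tested. These interval widths rest mostly on a spread shared by all probes (6.4 prior against 1 residual degree of freedom), and the 2 arrays may be technical. The counts therefore set no bound on the difference between the genotypes.

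**Figure D1:**
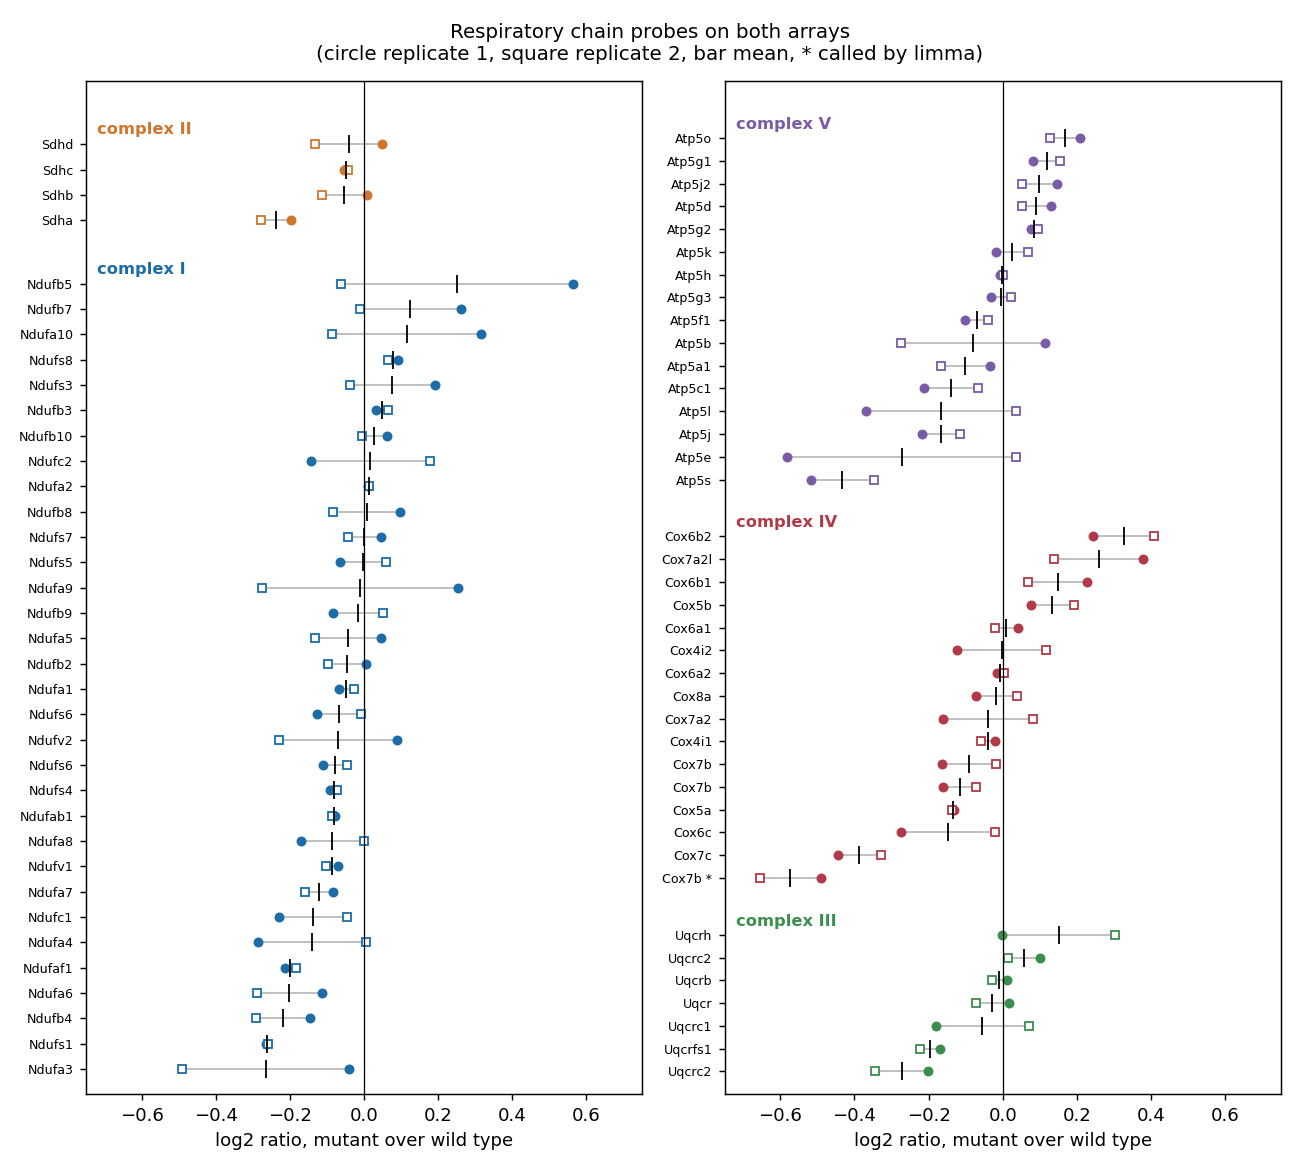
Log2 ratio of mutant over wild type (x axis) for 75 of the 76 respiratory chain probes (rows, grouped by complex); filled circles are replicate 1, open squares replicate 2, black bars the mean, and the asterisk marks the probe called by limma. Most means lie within 0.2 of 0, and the called Cox7b probe stands lowest at -0.57 while the other Cox7b probes stand at -0.12 and -0.09.

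Signs on the arrays were mixed. Both arrays were below 0 for 29 members and above 0 for 13, and the arrays had opposite signs for 34 (44.7%, against 39.7% of all probes tested). Over all probes tested 28.8% were below 0 on both arrays and 31.5% above. Of the 76 means 51 were negative (67.1%, against 48.4% of all probes tested). This lean was given no test, since members are not replicates. Pearson's r between the arrays was 0.364 across the 76 members and 0.577 across all probes tested, where each pair of values shares its probe and both arrays carry their own dye orientation. The members are bright, with a median log2 intensity of 13.4 against 7.93. Among probes with a mean log2 intensity of 12 or more, r was 0.206 across 58 members, of which 48.3% had opposite signs. It was 0.891 across all 734 such probes, of which 20.3% had opposite signs. The median absolute difference between the arrays was 0.113 for these members and 0.115 for all such probes. The interquartile range of the means was 0.107 against 0.356. The arrays thus lay about as far apart for members as for all such probes, over a narrower range of values. Within complex IV (16 probes) r was 0.787, and within complex I (33 probes) it was 0.024.

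**Figure D2:**
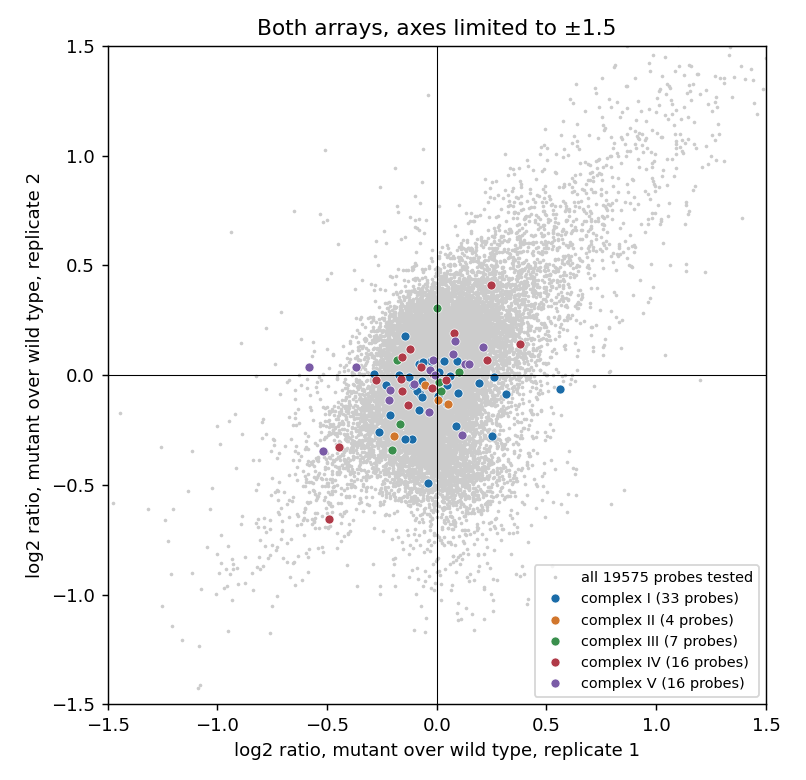
Log2 ratio of mutant over wild type on replicate 1 (x axis) against replicate 2 (y axis) for all 19575 probes tested (grey) and for the members coloured by complex; axes are limited to 1.5 in each direction, so the most extreme grey points are not shown. The members sit in the centre of the cloud, with 1 of 76 past 0.5 in its mean.

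The calls depend on how limma sets the spread of a gene. With a prior that follows intensity and is robust to outlying genes, 3 members were called higher and 6 lower, where 8.06% of all probes were called higher and 4.83% lower. The lower calls were Cox7c, the Cox7b probe, Atp5e, Ndufs1, Atp5s and Sdha, with adjusted p between 0.000133 (Cox7c) and 0.0418 (Sdha). The higher calls were Cox6b2, Cox7a2l and Ndufb5, with adjusted p between 0.0123 and 0.0289. For Atp5e and Ndufb5 the arrays had opposite signs. From the log ratios computed by the scanner, limma called 0 probes (2600 at an unadjusted p under 0.05), members included, and 4 members were at an unadjusted p under 0.05.

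The promoters of the genes were read from RefSeq (GRCm38.p6) as 250 bases before to 50 after each start, and 60 of the 72 genes matched, with 65 promoters. Nuclear genes of the chain are known for sites of Nrf1, of the Ets factor Gabpa, of estrogen-related receptors and of Yy1 in their promoters. Short cores of these were searched on both strands. CGCATGC (Nrf1, nearly a palindrome, so matches on both strands can overlap) was in 10 of the 65 promoters (15.4%), against 5.04% of the 16257 promoters of all genes tested and 3.58% of all 32851 promoters. CCGGAAG (Ets) was in 16 (24.6%, against 13.0% and 8.86%), AAGGTCA (estrogen-related receptor) in 8 (12.3%, against 3.68% and 4.72%) and GATGGCG (Yy1) in 10 (15.4%, against 4.83% and 3.49%). At least 1 of these stood in 32 of the 65 promoters (49.2%, against 23.7% and 18.7%). With the brightest probe standing for each gene, the 31 genes with a match had a median mutant over wild type log2 ratio of -0.028. The 29 without one had -0.048, a difference that was given no test. Cox7b entered this comparison at -0.091 and not with its called probe.

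Shown are the 250 bases before the start of Cox7b, which has the 1 called probe, and of Sdhb, Sdhd and Atp5e, which carry a match, with matches in capitals. Cox7b (chrX:106015450-106015699, plus strand) held no match to these letters in its window. The Nrf1 core of Sdhb (chr4:140961021-140961270, plus strand) begins 54 bases before the start. The Ets core of Sdhd (chr9:50603850-50604099, minus strand) begins 46 bases before it, and that of Atp5e (chr2:174464102-174464351, minus strand) 102 bases before it. In the full window searched, Sdhb also held the Ets core, and Sdhd and Atp5e the estrogen-related receptor core. Those matches do not lie within the bases shown. A match describes letters and is not a site shown to be bound.
Cox7b: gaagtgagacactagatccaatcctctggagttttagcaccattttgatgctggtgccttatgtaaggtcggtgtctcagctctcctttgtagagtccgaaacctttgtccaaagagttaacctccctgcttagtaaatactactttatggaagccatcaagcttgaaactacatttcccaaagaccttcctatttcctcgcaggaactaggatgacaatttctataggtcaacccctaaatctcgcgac
Sdhb: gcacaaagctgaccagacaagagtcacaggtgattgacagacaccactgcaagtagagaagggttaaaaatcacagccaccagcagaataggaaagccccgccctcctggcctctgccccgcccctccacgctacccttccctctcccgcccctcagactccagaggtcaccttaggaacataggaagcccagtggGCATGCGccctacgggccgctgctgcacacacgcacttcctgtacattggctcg
Sdhd: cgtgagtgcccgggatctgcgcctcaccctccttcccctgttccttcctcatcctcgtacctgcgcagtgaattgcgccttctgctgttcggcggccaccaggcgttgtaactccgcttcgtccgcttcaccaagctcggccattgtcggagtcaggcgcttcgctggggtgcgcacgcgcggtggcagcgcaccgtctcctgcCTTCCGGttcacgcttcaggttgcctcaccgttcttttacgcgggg
Atp5e: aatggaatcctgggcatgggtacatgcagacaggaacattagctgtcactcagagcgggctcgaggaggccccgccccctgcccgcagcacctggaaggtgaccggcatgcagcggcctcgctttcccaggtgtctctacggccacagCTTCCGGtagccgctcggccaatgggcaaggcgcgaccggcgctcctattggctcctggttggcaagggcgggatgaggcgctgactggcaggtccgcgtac

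Complex I is the entry point for electrons of NADH, and its 33 probes had a median of -0.045 (-0.065 and -0.046 on the arrays), with 0 called in either direction (1 lower at an unadjusted p under 0.05) and 28 means within 0.2 of 0. The core subunits described here had means on both sides of 0. Ndufs1, the largest core subunit, was the lowest of them. Its normalised intensity was 6486 and 6881 in the mutant and 7791 and 8233 in the wild type on replicates 1 and 2. The mutant channel was the dimmer one on both arrays and by nearly the same amount, with log2 ratios of -0.26 and -0.26 (mean -0.26 ± 0.11, moderated SE, n = 2, adjusted p = 0.292 in limma). Ndufv1, which binds NADH, had -0.07 and -0.10, and its partner Ndufv2 had 0.09 and -0.23. Ndufs7 (0.0011) and Ndufs8 (0.078), which carry iron-sulfur clusters, had means near 0, as had Ndufs3 (0.077).

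The accessory subunits of complex I, which surround the core and are needed for its assembly and stability, spread more widely between the arrays. Ndufb5 had intensities of 2140 against 1448 (mutant against wild type) on replicate 1 but 1504 against 1570 on replicate 2. Its log2 ratios of 0.56 and -0.06 (mean 0.25 ± 0.16, adjusted p = 0.497) thus rest on 1 array. Ndufa10 (0.31 and -0.085) and Ndufa9 (0.25 and -0.28) also had opposite signs. Ndufa3 had -0.04 and -0.49 (mean -0.27 ± 0.14, adjusted p = 0.401) on a dim probe, with intensities from 80.2 to 179. Ndufb4 (-0.14 and -0.29) and Ndufa6 (-0.11 and -0.29) were below 0 on both arrays, with means of -0.22 ± 0.11 and -0.20 ± 0.11, and neither was called. The assembly factor Ndufaf1 had -0.21 and -0.18. The separate probes of Ndufs6, which completes the NADH-oxidising arm, gave close means of -0.078 and -0.068. Ndufa4 had -0.29 and 0.0059.

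Complex II, which also works in the tricarboxylic acid cycle, has all its subunits encoded in the nucleus and all were measured. The flavoprotein gene Sdha had the lowest mean of the 4. Its intensity was 1818 and 1828 in the mutant and 2084 and 2217 in the wild type. Mutant was below wild type on both arrays, by -0.20 and -0.28 on the log2 scale (mean -0.24 ± 0.11, moderated SE, n = 2, adjusted p = 0.344). The iron-sulfur subunit Sdhb (0.0078 and -0.11) and the membrane anchors Sdhc (-0.053 and -0.043) and Sdhd (0.05 and -0.13) had means from -0.053 to -0.041, and their 95% intervals lay between -0.31 and 0.22.

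Complex III had a median of -0.028 over 7 probes with 0 called and 1 lower at an unadjusted p under 0.05. The Rieske iron-sulfur protein gene Uqcrfs1, which carries electrons towards cytochrome c, had intensities of 9137 and 10825 in the mutant and 10269 and 12627 in the wild type. It was lower in the mutant channel on both arrays, at -0.17 and -0.22 (mean -0.20 ± 0.11, adjusted p = 0.439), and was not called. The core protein gene Uqcrc2 had a pair of probes that disagreed. The bright probe, designed on the RefSeq transcript, gave 0.10 and 0.015, while a dim probe on a cDNA clone, with intensities from 92.2 to 164, gave -0.20 and -0.34. Uqcrc1, the other core protein, had -0.18 and 0.07, and the hinge protein gene Uqcrh had -0.0004 and 0.30.

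Complex IV, where oxygen is reduced, held the widest range of the complexes (-0.57 to 0.33) around a median of -0.028. The 1 called member was a probe named Cox7b, a small subunit of the complex. Its intensities were 133 and 171 in the mutant and 187 and 269 in the wild type, near the dim end of the members. The mutant was lower on both arrays, with log2 ratios of -0.49 and -0.66 (mean -0.57 ± 0.11, moderated SE, n = 2, 1.49-fold lower, adjusted p = 0.0312 in limma). The call was lost with offset 16 (adjusted p = 0.0817), with median centring (0.168), with the scanner's log ratio or the series value table (0.171 in each), and with the brightest probe standing for its gene. The other Cox7b probes were not called. The probe designed on the RefSeq transcript of Cox7b had intensities between 7907 and 9371 and log2 ratios of -0.16 and -0.018 (adjusted p = 0.757), and a further clone probe gave -0.16 and -0.07. The called probe was designed on a cDNA clone, and which transcript it detects was not tested.

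The nearest to a call after it in this complex was Cox7c, another small subunit. It had 4277 and 5658 in the mutant against 5824 and 7101 in the wild type, so the mutant was below the wild type on both arrays (-0.45 and -0.33, mean -0.39 ± 0.11, adjusted p = 0.118). The large nuclear subunits that wrap the catalytic core had means near 0: Cox4i1 -0.04, Cox5a -0.13 and Cox5b 0.13. Cox6c had -0.28 and -0.022.

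Isoforms of complex IV subunits that differ between tissues showed no called difference. Cox4i1 and its hypoxia- and lung-associated counterpart Cox4i2 had means of -0.04 and -0.0024, the latter with opposite signs (-0.12 and 0.12). The heart and skeletal muscle form Cox6a2 had -0.016 and 0.0044, and its ubiquitous counterpart Cox6a1 was saturated in both genotypes, so no ratio is given for it. The testis form Cox6b2 had 519 and 414 in the mutant and 438 and 312 in the wild type. It was the highest member, above the wild type on both arrays (0.24 and 0.41, mean 0.33 ± 0.11, adjusted p = 0.198), beside 0.15 ± 0.11 for Cox6b1. Cox7a2l, which encodes a factor that joins complexes III and IV into supercomplexes, had 0.38 and 0.14 (mean 0.26 ± 0.12, adjusted p = 0.337), whereas the ordinary subunit Cox7a2 had -0.16 and 0.08. The isoforms of muscle and brown fat that the choice of genes left out had 0.15 and 0.16 (Cox8b) and -0.07 and -0.14 (Cox7a1), and neither was called; Cox8a had a mean of -0.017.

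Complex V had a median of -0.038 over 16 probes (-0.025 and 0.029 on the arrays, of opposite sign), with 0 called and 1 lower at an unadjusted p under 0.05. Its catalytic F1 head gave -0.10 for Atp5a1 (alpha), -0.08 for Atp5b (beta, 0.11 and -0.28 on the arrays) and -0.14 for Atp5c1 (gamma, the rotor shaft). The epsilon gene Atp5e had 21268 in the mutant and 31815 in the wild type on replicate 1, but 37274 and 36349 on replicate 2. Its log2 ratios of -0.58 and 0.04 (mean -0.27 ± 0.16, adjusted p = 0.46) thus came from 1 array, as did those of the membrane subunit gene Atp5l (-0.37 and 0.036). The delta gene Atp5d was above 0 on both arrays (0.13 and 0.052, mean 0.091 ± 0.11). The 3 genes that encode the identical subunit c of the membrane ring, Atp5g1 (0.12), Atp5g2 (0.085) and Atp5g3 (-0.0046), lay within 0.2 of 0. Atp5o, of the stalk that holds the head still, had 0.21 and 0.13 (mean 0.17 ± 0.11), and Atp5j, the coupling factor 6 of the same stalk, had -0.22 and -0.12 (mean -0.17 ± 0.11). The lowest value belonged to Atp5s, with 178 and 207 in the mutant and 254 and 263 in the wild type. Both arrays were lower (-0.52 and -0.35, mean -0.43 ± 0.11, 1.35-fold lower), and the adjusted p of 0.0863 in limma missed the threshold.

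**Figure D3:**
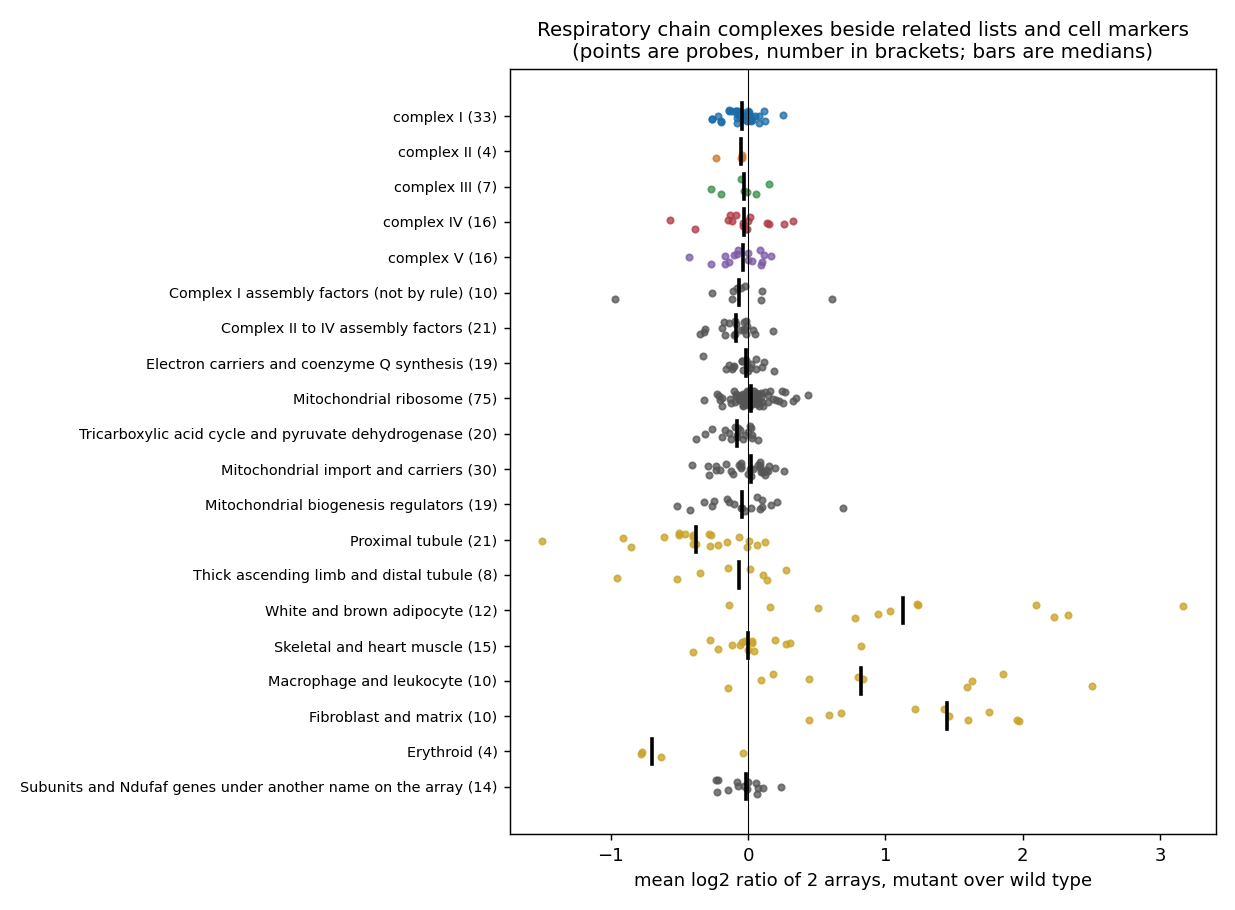
Mean log2 ratio of mutant over wild type over 2 arrays (x axis) for the probes of each complex, of related mitochondrial lists and of cell type marker lists; points are probes, black bars medians, and the number of probes stands in brackets. The medians of the 5 complexes lie between -0.050 and -0.028, whereas those of the proximal tubule, adipocyte, macrophage and fibroblast markers lie at -0.38, 1.13, 0.82 and 1.44.

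Other genes of oxidative metabolism were taken from lists. Further chain genes that stood under another name on the array were found through the gene table after the values had been seen: of these 14 probes 0 were called, with a median of -0.019. They included Ndufa4l2, a hypoxia-inducible relative of Ndufa4, with the largest absolute mean (0.24 ± 0.11). Of 3 probes named for mitochondrially encoded subunits, mt-Nd4 gave -0.39 and -0.08 and was not called, the probe named mt-Cytb was saturated in 2 channels, and mt-Co2 was saturated in all 4. Among electron carriers and coenzyme Q synthesis genes 0 of 19 were called (median -0.013), with 1 lower at an unadjusted p under 0.05. The largest absolute mean there was that of Pdss1, which makes the side chain of coenzyme Q, at -0.33 ± 0.11 (named Tprt on the array). The same list held Cyc1, the cytochrome c1 gene of complex III, which the choice by name left out. Cyc1 had 0.29 and 0.087 and was not called.

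Assembly and regulatory genes held the called changes nearest to the chain. Over all probes tested limma called 3.41% higher and 1.06% lower. With the scanner's log ratios or the series value table it called 0 probes, so these calls too were lost there. Of 10 probes for complex I assembly factors outside the member list, 1 was lower and 1 higher (median -0.066). Acad9, a flavoprotein needed to build complex I, fell in the mutant (-0.97 and -0.97 on the arrays, mean -0.97 ± 0.11, moderated SE, n = 2, 1.96-fold lower, adjusted p = 0.00313). Timmdc1, which helps to assemble its membrane arm, rose (0.55 and 0.67, mean 0.61 ± 0.11, adjusted p = 0.023). None of 21 probes for assembly factors of complexes II to IV was called (0 of 21, median -0.088), with 3 lower and 0 higher at an unadjusted p under 0.05. Lrpprc, which stabilises mitochondrial transcripts, had -0.33 and -0.37 (adjusted p = 0.154). Of 4 probes for assembly and inhibition of ATP synthase 0 were called (median -0.13), with Tmem70 at -0.26. The Tmem70 probe is also counted among the 10 for complex I assembly factors.

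Among 19 regulators of mitochondrial gene expression 1 was higher and 1 lower (median -0.047). Ppargc1a, the coactivator best known for driving mitochondrial biogenesis, rose (0.77 and 0.61, mean 0.69 ± 0.11, 1.62-fold, adjusted p = 0.0146). Gabpb1, the partner subunit of Gabpa, fell (-0.45 and -0.58, mean -0.52 ± 0.11, adjusted p = 0.0442). Nrf1 (0.02), Tfam (-0.047) and Esrra (-0.14) had means near 0 and were not called. Of the 20 probes of the tricarboxylic acid cycle and pyruvate dehydrogenase 0 were called (median -0.079), with 3 lower and 0 higher at an unadjusted p under 0.05. Pyruvate carboxylase, Pcx, had the largest absolute mean, -0.38 ± 0.11 (adjusted p = 0.12).

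The same arrays held larger differences in cell type markers. In whole kidney RNA, fewer cells of a type and less RNA per cell cannot be told apart. Of 21 proximal tubule probes 4 were called lower and 0 higher, with a median of -0.38. The summed normalised intensity of this list was 326019 and 363386 in the mutant and 402384 and 423998 in the wild type. Of 8 probes for the thick ascending limb and distal tubule 1 was called lower, Egf (-0.96), with a list median of -0.067. Of 12 adipocyte probes 10 were called higher, with sums of 40129 and 41320 against 13511 and 14292. Among them was Ucp1, the uncoupling protein of brown fat (1.23 and 1.24, 2.35-fold, adjusted p = 0.00141). Macrophage and leukocyte probes had 6 of 10 called higher, with sums of 12111 and 13062 against 4624 and 4694. Fibroblast and matrix probes had 8 of 10 called higher, with sums of 17311 and 19049 against 6682 and 7521. Of 15 probes for muscle genes 1 was called higher, Acta1 (0.82), and of 4 erythroid probes 3 were called lower. Apart from 2 muscle probes, every tested probe of these lists was well above background in all 4 channels, and the part of these markers in the ratios of the chain genes was not tested.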

How the data were processed

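Agilent Feature Extraction 8.1.1.1 read the two-colour arrays, as the file headers give it. In the labels' protocols, 500 ng of total RNA was amplified, and 750 ng of each Cy3 or Cy5 labelled cRNA was hybridised for 17 hours. The deposited files hold the mean and median local background intensity of each spot per channel before normalization, and a log10 ratio of Cy5 over Cy3 after the software's own background, spatial and dye corrections, per the file headers. The series value table that the authors deposited holds log10 ratios equal to the scanner's with the sign turned on all 22393 features (largest difference 0, column medians 0), so it reads Cy3 over Cy5. The genome build is not given in the sources used here; gene names follow the array, and current symbols, chromosomes and promoters come from RefSeq tables (GRCm38.p6), where 69 member probes matched by accession and 7 by symbol.

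R 4.3.3 and limma 3.58.1 were used: normexp with offset 50 on the mean and background intensity, loess within arrays with controls at weight 0, replicate 1 turned to mutant over wild type, control spots and 88 outlier spots left out, and spots kept where 1 genotype at least was well above background on both arrays. Spots of a probe were averaged. lmFit and eBayes tested 19575 probes on the log2 scale (1 residual and 6.4 prior degrees of freedom) with Benjamini-Hochberg adjustment over all of them. This fit, but not the steps before it, was tested on simulated log ratios. Each slide was its own scan and dye orientation, which cannot be told apart. Alternatives covered background, offset, normalization, scanner ratios, filters, the prior and 1 probe per gene. Named are called members, the 4 of largest absolute mean per complex, most core subunits, isoform pairs and the leading genes of related lists. Members and lists were chosen with earlier results of these data known. The single values of 1 member, which entered the fit and the counts, are not reported here.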

Additional observations from a re-analysis of the deposited data

How the results depend on the processing

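Over both arrays the members' median stayed below 0 under each alternative run. It was -0.042 as reported, -0.039 with offset 16, -0.080 with median centring, -0.045 with the scanner's log ratio and the same, -0.045, with the series value table, -0.034 with scaling between arrays and -0.039 with 1 probe per gene; single arrays gave -0.036 and -0.034. Without the saturated Cox6a1 probe, a choice made after seeing the data, it was -0.043. With median centring the arrays parted, at -0.19 and 0.055. Against 667 higher and 208 lower probes over the whole array, limma gave 253 and 40 under offset 16, 208 and 31 under median centring, 0 and 0 with the scanner's ratio (2600 at an unadjusted p under 0.05), 0 and 0 with the value table, and 1577 and 945 with the trended prior; 318 were lower with no background subtraction. The higher share of calls was 76.2% as reported, 86.3% with offset 16, 87.0% with median centring and 62.5% with the trended prior. Among members, 3 were higher and 6 lower with the trended prior, and 0 were lower with offset 16, median centring, the scanner's ratio, the value table or 1 probe per gene, where the brightest Cox7b probe replaces the called one. The called Cox7b probe ran from -0.90 to -0.54, with adjusted p from 0.0056 to 0.171. Of the 34 members with opposite signs on the arrays, 5 are among the 20 of largest absolute mean (4 per complex). With replicate 1 first, they are Ndufb5 (0.56 and -0.062), Sdhb (0.0078 and -0.11), Sdhd (0.050 and -0.13), Uqcrh (-0.00040 and 0.30) and Atp5e (-0.58 and 0.036). Over the 10 alternatives that used both arrays 12 of 76 members changed sign, all with a reported mean within 0.028 of 0. Why the other values moved was not tested. The number of arrays and the background of dim spots limit the precision.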

Other observations

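Other mitochondrial machinery was measured on the same arrays. Of 75 probes for mitochondrial ribosomal proteins, which translate the mitochondrially encoded subunits of the chain, 0 were called by limma at an adjusted p under 0.05, with 4 higher and 0 lower at an unadjusted p under 0.05 and a median of 0.017. Mrpl33 had the largest absolute mean, 0.44 ± 0.11 (0.43 and 0.44 on the 2 arrays, adjusted p = 0.0745). Of 30 probes for import, chaperone and carrier proteins 0 were called (median 0.019), with 2 lower and 0 higher at an unadjusted p under 0.05. The matrix chaperonin genes Hspd1 (-0.42 and -0.40) and Hspe1 (-0.32 and -0.27) were below 0 on both arrays and were not called.

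The vacuolar proton pump, whose Atp6v genes are named like ATP synthase but which acidifies vesicles and, in intercalated cells, the urine, had a median of 0.0022 over 21 probes. Atp6v1b1, its intercalated cell subunit, was the 1 called (0.83 and 0.58, adjusted p = 0.0163). Of the uncoupling proteins, Ucp2 (0.19) and Ucp3 (0.12) were not called.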
